A study of Homo sapiens with 6 samples.

Results

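The plasminogen activators of ARPE-19 cells, their receptor and a pair of serpins that block them were followed by RNA-seq after knockdown of EIF1. The genes are PLAU and PLAT, which encode the urokinase-type (uPA) and tissue-type (tPA) plasminogen activators, PLAUR, which encodes the uPA receptor uPAR, and SERPINB2 and SERPINE2, which encode plasminogen activator inhibitor 2 (PAI-2) and protease nexin-1. These 5 genes, of 30618 in the count table, were taken by gene symbol. They were chosen by a reading of the same siEIF1 against NC difference that is described below, so their differences are given as a description. Calls from the fit over all genes are counted for them beside the share of all genes, and support nothing. They are counted again for other fits in the closing section, which support nothing either. All 5 passed the filter on low counts, which 16749 genes passed, and all 5 had FPKM values. SERPINB2 was the member that differed most, with a level in the siEIF1 group, by FPKM (fragments per kilobase of gene length, scaled to library size), at 47.5% of the NC mean. PLAUR and PLAT were also lower, PLAU was higher, and the SERPINE2 values of the groups overlapped.

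The cells belong to ARPE-19, an established line of human retinal pigment epithelium (RPE). All 6 libraries came from ARPE-19 cells kept in 50 mM glucose, 3 transfected with a non-targeting control siRNA (NC) and 3 with an siRNA against the translation initiation factor EIF1 (siEIF1). Both groups share the high glucose, so these values compare the siRNAs only. The model is 1 cell line and the knockdown was made with 1 siRNA sequence. The methods describe the replicates as biologically independent. EIF1 itself had between 281 and 294 FPKM in the NC libraries and between 22.7 and 24.3 FPKM in the siEIF1 libraries. The libraries held between 26499929 and 31431479 counts. Of 13 RPE markers, 11 were analysed, without RPE65 and TTR. Of these, 5 had a mean above 1 FPKM, while the pigment genes TYR and TYRP1 each stayed under 0.1 FPKM on average. The summed RPE markers, most of which was KRT18 and KRT8, ranged from 521 to 541 FPKM in NC and from 564 to 610 FPKM in siEIF1 libraries. Of the 9 markers tested, KRT18, KRT8 and RLBP1 were higher by the test and 0 lower, against 10.2% and 10.4% of all tested genes. RLBP1 was low in both groups, with means of 0.237 FPKM in NC and 0.680 FPKM in siEIF1 libraries. BEST1, with 66.0 FPKM in NC and 52.0 FPKM in siEIF1 libraries (log2 fold change -0.32, edgeR adjusted p = 0.106), LRAT (-0.40), MITF (-0.04) and OTX2 (0.096) did not pass the test. Genes that overlap the markers were not looked up, and the strand setting of the counting is not given in the sources used here. Most of the rise of the sum was in KRT18 and KRT8, and its part in the results below was not tested. None of 6 analysed markers of endothelial, blood or glial cells reached a mean of 1 FPKM, and their sum was between 0.86 and 1.01 FPKM in every library.

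Plasminogen is a circulating zymogen that uPA and tPA cut to the active protease plasmin, which degrades fibrin and matrix proteins and activates other proteases and growth factors. uPA works mostly at the cell surface, where uPAR, a receptor held by a glycolipid anchor, binds it, while tPA acts mostly on fibrin. Serpins stop these proteases by a suicide mechanism in which the protease cuts an exposed loop and is trapped in a covalent complex. PAI-2 blocks uPA and 2-chain tPA and is largely kept inside cells, and protease nexin-1 blocks thrombin as well as uPA, tPA and plasmin. In the eye, pericellular plasmin formation is known from wound closure, the growth of new vessels and the remodelling of the matrix under the RPE.

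The sequences just upstream of the transcription starts of SERPINB2, PLAUR and PLAU are shown because these genes had the largest differences among the members, the first pair lower and PLAU higher in siEIF1 libraries. They are RefSeq promoter sequences on GRCh38.p14, which held 4 of the 5 members, and each run covers the 250 bases before the start used by the canonical transcript. The SERPINB2 stretch is chr18:63887455-63887704 on the forward strand, that of PLAUR is chr19:43670170-43670419 on the reverse strand and that of PLAU is chr10:73910882-73911131 on the forward strand. Capitals mark matches, on either strand, to the TATA box (TATAAA), the GC box (GGGCGG), the AP-1 site (TGANTCA) or the cAMP response element (TGACGTCA).
SERPINB2: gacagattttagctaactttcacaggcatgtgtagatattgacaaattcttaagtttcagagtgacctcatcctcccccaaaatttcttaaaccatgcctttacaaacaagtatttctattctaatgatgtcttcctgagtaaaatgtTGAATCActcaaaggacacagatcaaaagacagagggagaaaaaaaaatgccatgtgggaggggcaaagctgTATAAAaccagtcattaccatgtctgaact
PLAUR: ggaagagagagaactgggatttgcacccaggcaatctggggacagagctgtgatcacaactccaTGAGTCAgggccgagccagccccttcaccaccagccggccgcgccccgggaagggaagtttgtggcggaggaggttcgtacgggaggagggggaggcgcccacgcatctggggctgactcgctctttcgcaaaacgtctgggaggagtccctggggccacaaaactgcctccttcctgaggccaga
PLAU: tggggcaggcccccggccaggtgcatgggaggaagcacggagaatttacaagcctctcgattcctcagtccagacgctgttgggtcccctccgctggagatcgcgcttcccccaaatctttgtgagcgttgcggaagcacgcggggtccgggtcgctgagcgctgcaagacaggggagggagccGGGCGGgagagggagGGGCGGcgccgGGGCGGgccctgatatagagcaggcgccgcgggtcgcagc

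The SERPINB2 stretch held a TATA box from base -30 to -25 and an AP-1 letter match from base -102 to -96, counted from the start. PLAUR held an AP-1 letter match from base -186 to -180 and no TATA box. PLAU held 3 GC boxes between bases -66 and -35 and neither of the other 2 motifs found in SERPINB2. The cAMP response element was in none of these 3 stretches. Among 34943 promoter stretches of the same length in the table, 10.8% held the TATA box, 42.5% the GC box, 6.59% the AP-1 letters and 1.63% the cAMP response element. The GC content was 37.2% for SERPINB2, 63.2% for PLAUR and 68.8% for PLAU, against a median of 58.0% over all stretches. These matches describe letters in the windows and no binding was measured.

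To compare the activators, the PLAU values were examined first. PLAU (ENSG00000122861.16) is a forward-strand gene on chromosome 10 (73909177 to 73917496, GENCODE 44 on GRCh38), with 11 exons in its canonical transcript. PLAU had 5.11, 4.32 and 4.75 FPKM in NC replicates 1 to 3 and 6.43, 5.14 and 6.43 FPKM in siEIF1 replicates 1 to 3. Every siEIF1 library lay above every NC library, although siEIF1 replicate 2 lay only just above NC replicate 1. The group means were 4.73 ± 0.396 FPKM in NC and 6.0 ± 0.745 FPKM in siEIF1 (SD, n = 3). On the counts, which ranged from 447 to 728 per library, the log2 fold change was 0.36 (standard error 0.089), a fold of 1.29. In these bulk libraries, more cells that express a gene and more RNA per cell cannot be told apart.

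A noncoding gene on the opposite strand, C10orf55, overlaps PLAU over 7528 bases. It had 9, 8 and 6 counts in the NC and 23, 15 and 13 counts in the siEIF1 libraries, and its log2 fold change of 1.02 (standard error 0.378) did not pass the test (edgeR adjusted p = 0.0746). Both genes were thus higher in every siEIF1 library than in every NC library. The libraries were strand-specific by the study's methods, but whether the counting used the strand is not given in the sources used here. It is therefore uncertain how reads were shared between PLAU and C10orf55. The counts of C10orf55 were at most 23 in a library against at least 447 for PLAU.

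The other activator differed in the opposite direction. PLAT (ENSG00000104368.19), on the reverse strand of chromosome 8 from 42174718 to 42207709, had 4.07, 3.58 and 3.73 FPKM in NC replicates 1 to 3 and 3.14, 2.85 and 3.26 FPKM in siEIF1 replicates 1 to 3. The lowest NC library stood above the highest siEIF1 library. The means were 3.79 ± 0.251 FPKM and 3.08 ± 0.211 FPKM (SD, n = 3), and the log2 fold change on counts was -0.28 (standard error 0.066). In the siEIF1 libraries the values of the 2 activators thus lay on opposite sides of their NC levels, PLAU above and PLAT below.

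PLAU made up 55.7%, 54.7% and 56.0% of the summed FPKM of both activators in the NC libraries and 67.2%, 64.3% and 66.4% in the siEIF1 libraries. The sum itself overlapped between the groups, with 8.52 ± 0.641 FPKM in NC and 9.08 ± 0.949 FPKM in siEIF1 (SD, n = 3). The groups did not overlap in the PLAU share, while they overlapped in the sum. Both genes were picked with the contrast known, PLAU higher and PLAT lower. A distance between the groups in the share thus follows from the choice of this pair. With the canonical transcript length of each gene in place of the length behind the FPKM, the PLAU share was 38.2% ± 0.629 in NC and 49.0% ± 1.61 in siEIF1 (SD, n = 3), so the share itself depends on the length while the difference is in the same direction.

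PLAUR (ENSG00000011422.12) encodes the receptor that holds uPA at the cell surface and lies on the reverse strand of chromosome 19 from 43646095 to 43670547. PLAUR had 10.95, 9.08 and 9.27 FPKM in NC replicates 1 to 3 and 7.48, 7.25 and 7.32 FPKM in siEIF1 replicates 1 to 3. All siEIF1 libraries were below all NC libraries, and the siEIF1 values lay close together. The means were 9.77 ± 1.03 FPKM and 7.35 ± 0.118 FPKM (SD, n = 3). The log2 fold change was -0.39 (standard error 0.071), and -0.30 without NC replicate 1, the highest library. PLAU was higher and PLAUR lower, so a distance between the groups in their ratio follows from the choice of this pair. The ratio of PLAU to PLAUR by FPKM was 0.485 ± 0.0242 in NC and 0.816 ± 0.0929 in siEIF1 libraries (SD, n = 3), with no overlap between the groups. On the canonical transcript length it was 0.187 ± 0.00926 in NC and 0.315 ± 0.0358 in siEIF1 libraries (SD, n = 3).

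SERPINB2 (ENSG00000197632.9), the gene of PAI-2, is a forward-strand gene on chromosome 18 (63871692 to 63903888). It had 19.08, 17.06 and 17.40 FPKM in NC replicates 1 to 3 and 8.62, 8.22 and 8.59 FPKM in siEIF1 replicates 1 to 3. The groups were far apart compared with their spread, since the lowest NC value, 17.06 FPKM, stood well above the highest siEIF1 value, 8.62 FPKM. The means were 17.8 ± 1.08 FPKM and 8.48 ± 0.223 FPKM (SD, n = 3), and the log2 fold change was -1.05 (standard error 0.059), a fold of 0.482. By the size of the fold change SERPINB2 ranked 282nd among the 16749 genes tested. Its fold lies close to the 2-fold limit, and the log2 fold change was -1.0 without NC replicate 1.

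SERPINE2 (ENSG00000135919.14), the gene of protease nexin-1, lies on the reverse strand of chromosome 2 from 223975045 to 224039318. It had 5.04, 3.63 and 3.71 FPKM in NC replicates 1 to 3 and 3.66, 3.27 and 4.11 FPKM in siEIF1 replicates 1 to 3. The groups overlapped, and NC replicate 1 stood apart from the other NC libraries. The means were 4.13 ± 0.792 FPKM and 3.68 ± 0.420 FPKM (SD, n = 3), and the log2 fold change of -0.15 (standard error 0.109) became 0.022 without NC replicate 1. No direction can therefore be given for SERPINE2.

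Annotated genes that overlap these members were looked up as well, since counts of overlapping genes can be split. SERPINB2 overlaps a gene on the same strand, ENSG00000289724, over 6715 bases, which was not analysed here. RN7SL368P lies within PLAUR on the same strand over 277 bases and had at most 4 counts in a library, against at least 1180 for PLAUR. PLAT and SERPINE2 overlap no annotated gene.

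**Figure D1:**
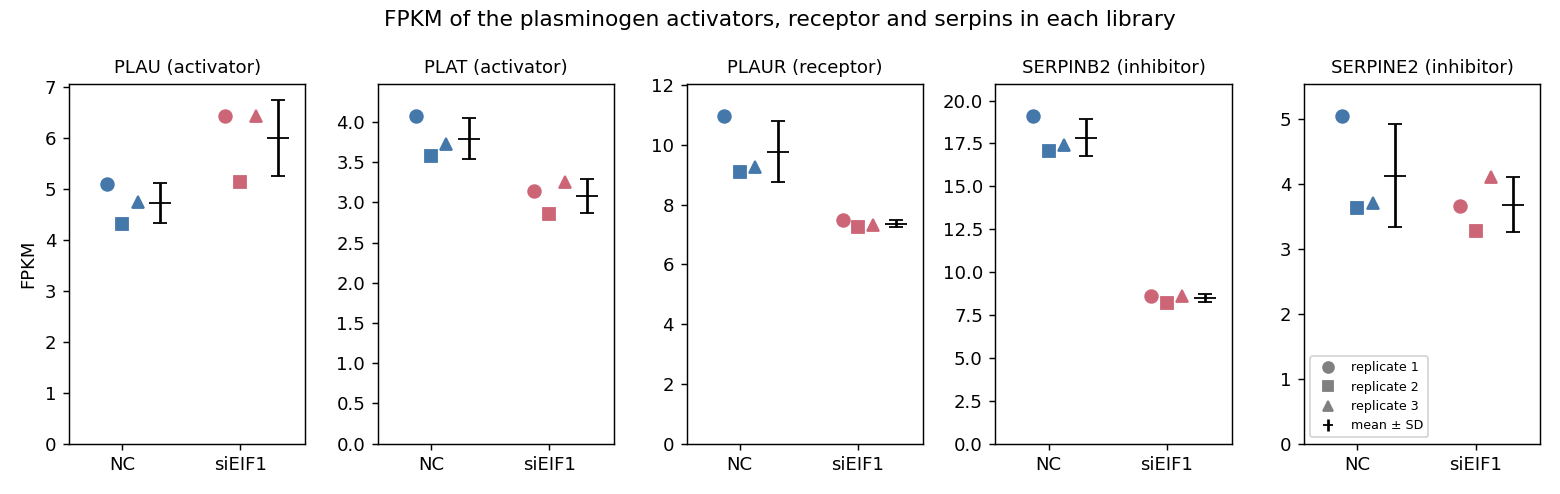
FPKM of PLAU, PLAT, PLAUR, SERPINB2 and SERPINE2 (vertical axes, each from 0) in the 3 NC and 3 siEIF1 libraries; circles, squares and triangles are replicates 1, 2 and 3, and the black marks give the group mean ± SD. The SERPINB2 means were 17.8 FPKM in NC and 8.48 FPKM in siEIF1 libraries, PLAU alone was higher in the siEIF1 group, and the SERPINE2 groups overlap.

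Some libraries were high or low for all members. NC replicate 1 had the highest FPKM of the NC libraries for 5 of 5 members, and siEIF1 replicate 2 had the lowest of the siEIF1 libraries for 5 of 5. By CPM, NC replicate 1 was again the highest for all 5, while siEIF1 replicate 2 was the lowest for 3 (PLAU, PLAT and SERPINE2). The log2 CPM of NC replicate 1 exceeded the mean of its group by 0.31 for SERPINE2, by 0.10 for SERPINB2 and by 0.11 for PLAT. The members of a library are therefore not separate replicates of the comparison.

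Of the 5 members, 1 was called higher (PLAU) and 3 lower (SERPINB2, PLAUR and PLAT) when the adjusted p of edgeR had to be under 0.05, where 10.2% of all tested genes were called higher and 10.4% lower. With an added limit of a fold change above 2 or below 0.5, 1 member, SERPINB2, was called lower, against 1.31% of all tested genes. By CPM (counts scaled to library size), the NC and siEIF1 ranges were apart for 4 of the 5 members, as for 37.1% of all tested genes. Nothing is read from these counts, since the members were picked with the contrast known.

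**Figure D2:**
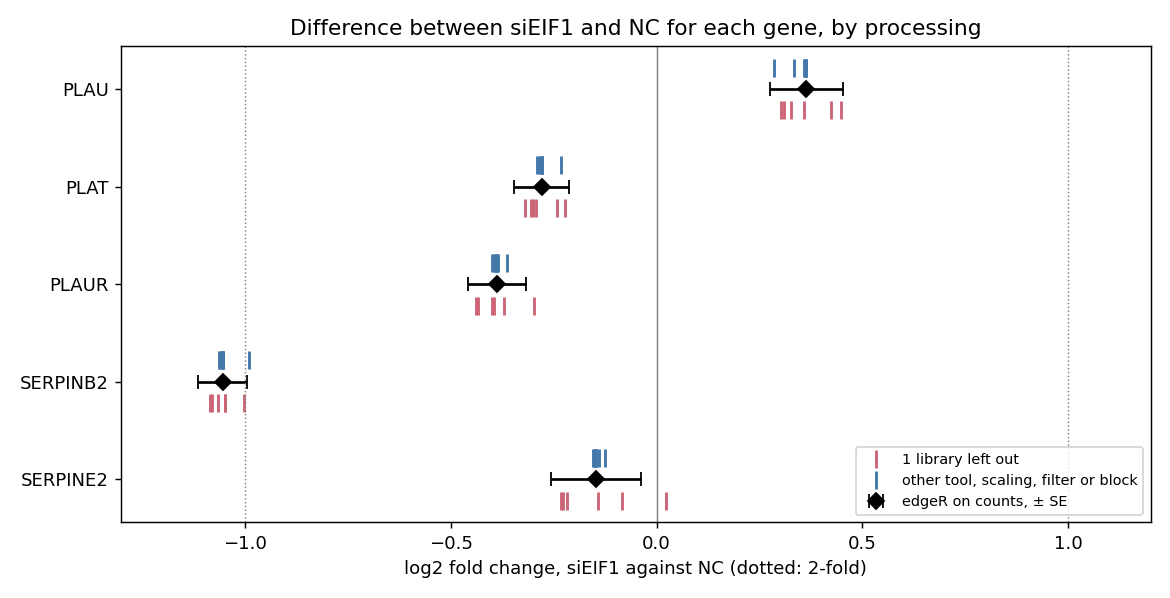
Log2 fold change of each member in siEIF1 against NC (horizontal axis; dotted lines mark a 2-fold change). Diamonds with bars are the edgeR value on counts ± its standard error, blue marks above them are fits with another tool, scaling, filter or the replicate block, and red marks below are fits with 1 library left out; the marks of SERPINE2 alone cross 0, from -0.23 to 0.022.

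The order of the members by level depended on the gene length. By FPKM in the NC group, SERPINB2 was the highest, followed by PLAUR, and each of these lay above the next member without overlap of the libraries. PLAU, SERPINE2 and PLAT followed with means of 4.73, 4.13 and 3.79 FPKM, and neighbours among these overlapped. In the siEIF1 group the order was the same, with SERPINB2 at 8.48 and PLAUR at 7.35 FPKM now close to each other, and no neighbours overlapped. The length behind the FPKM, taken back from counts and FPKM, was 1.21 to 1.24 times the merged exon length of GENCODE 44 for each member. This range was the same for all 5, so the length behind the FPKM was in proportion to the merged exon length. The calculation took the summed counts as the library total, so the factor itself cannot be read as a length. That merged length exceeds the canonical transcript 4.02 times for SERPINE2, 3.26 times for PLAUR and 1.26 times for PLAU. By CPM per kilobase of canonical transcript, PLAUR was the highest member in both groups, at 39.1 ± 4.02 in NC and 29.4 ± 0.406 in siEIF1, and PLAU the lowest, at 7.32 ± 0.572 and 9.24 ± 1.05 (SD, n = 3). Differences between the groups for 1 gene are not touched by the length, but levels between genes are.

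SERPINB2 was also set against PLAU, the gene of a protease that PAI-2 blocks, as a ratio of transcripts. Among the members SERPINB2 fell most and PLAU alone rose, so a distance between the groups follows from the choice of this pair. By FPKM this ratio was 3.73, 3.95 and 3.66 in the NC libraries and 1.34, 1.6 and 1.34 in the siEIF1 libraries. The groups did not overlap, with means of 3.78 ± 0.149 and 1.43 ± 0.151 (SD, n = 3). On the canonical transcript length the means were 4.32 ± 0.168 and 1.63 ± 0.173 (SD, n = 3). By FPKM, SERPINB2 over the sum of PLAU and PLAT was 2.10 ± 0.0561 in NC and 0.939 ± 0.0784 in siEIF1 libraries (SD, n = 3). A ratio of transcripts does not measure the proteins or their activity.

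**Figure D3:**
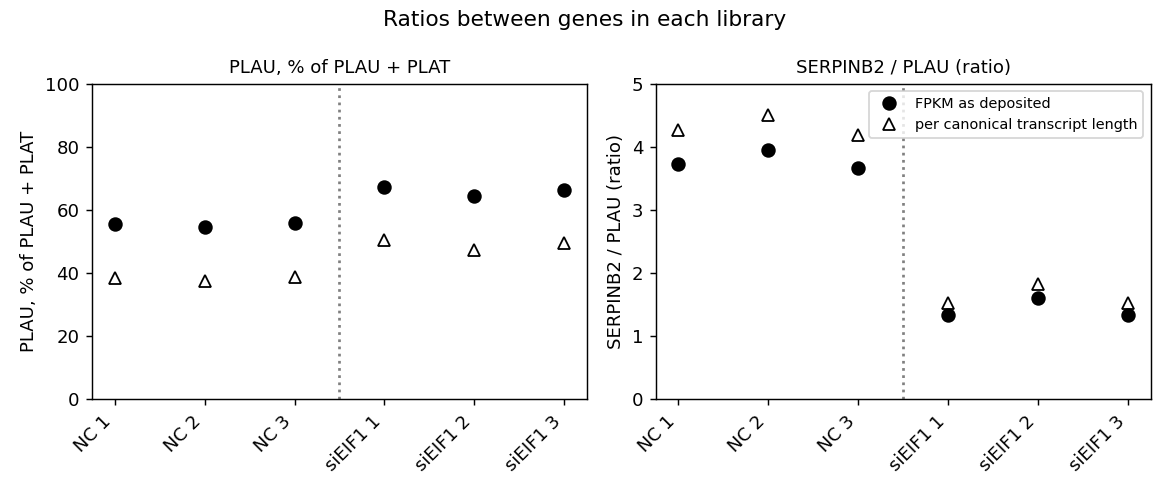
PLAU as a percent of the summed level of PLAU and PLAT (left) and the ratio of SERPINB2 to PLAU (right) in each of the 6 libraries; filled circles use the deposited FPKM and open triangles the canonical transcript length. The PLAU share is higher and the SERPINB2 ratio lower in all 3 siEIF1 libraries on both scales.

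The other genes of the plasminogen system were examined by 7 lists written from their known roles. Earlier results of these data were known by then, so the counts and medians of the lists are a description. Of 84 listed genes that are no members, 76 were analysed and 58 passed the filter on low counts. Of these 58, 16 rose and 5 fell at an adjusted p under 0.05 by edgeR, with a median log2 fold change of 0.13, against 0.0033 over all genes tested, of which 10.2% rose and 10.4% fell. No listed gene passed the 2-fold limit. Each call named below held in all 14 alternative fits, 8 with another scaling, filter, tool or block and 6 with 1 library left out, unless another count is given.

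Among the other inhibitors of the activators and plasmin, SERPINI1 and SERPING1 did not pass the test. SERPINI1 (neuroserpin, an inhibitor of tPA) had a log2 fold change of 0.74 (standard error 0.260) with a mean count of 48.2 (edgeR adjusted p = 0.0631). SERPING1, the C1 inhibitor, had a log2 fold change of 0.13 (edgeR adjusted p = 0.0940). SERPINA5, SERPINF2, A2M and CPB2 had mean counts of 2.83 or less and were not tested.

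Of 6 tested genes for the surface binding of plasminogen, 1 fell and 0 rose, against 10.4% and 10.2% of all tested genes. The gene that fell was PLGRKT, a plasminogen receptor, from 6.02 to 4.50 FPKM (log2 fold change -0.40, standard error 0.103, edgeR adjusted p = 0.0145). This call held in 11 of 14 alternative fits, and was lost without NC replicate 1, without NC replicate 3 and without siEIF1 replicate 2. The abundant receptors ENO1 (369 and 331 FPKM in NC and siEIF1), ANXA2 (121 and 128 FPKM) and S100A10 (210 and 223 FPKM), of which ANXA2 and S100A10 form a complex that binds tPA and plasminogen, had log2 fold changes of -0.14, 0.10 and 0.11 and did not pass the test. HMGB1 (-0.12) and CKAP4 (0.088) did not pass it either. PLG, plasminogen itself, had a mean count of 0.333 and was not tested.

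The partners of uPAR and the receptors that clear protease and inhibitor complexes were listed together. Of 16 tested, 6 rose and 0 fell, where 10.2% of all tested genes rose and 10.4% fell. The clearance receptors LRP1 (log2 fold change 0.23, edgeR adjusted p = 0.173) and VLDLR (-0.16, edgeR adjusted p = 0.0756) were not among these calls. CAV1 (caveolin-1) rose from 22.1 ± 1.24 FPKM to 33.5 ± 1.51 FPKM (SD, n = 3; log2 fold change 0.62, edgeR adjusted p = 6.24e-06). PDGFRB, a growth factor receptor with which uPAR has been linked, rose from 8.15 ± 1.52 FPKM to 12.2 ± 1.17 FPKM (SD, n = 3; log2 fold change 0.60, edgeR adjusted p = 0.00176). SRPX2, a secreted uPAR ligand, rose from 0.947 to 1.44 FPKM with a log2 fold change of 0.63. The vitronectin receptor subunits ITGB5 and ITGAV rose as well, with log2 fold changes of 0.36 and 0.20. VTN, the gene of vitronectin, had a log2 fold change of 0.39 (edgeR adjusted p = 0.0133). The VTN call held in 12 of 14 alternative fits, and was lost without NC replicate 3 and without siEIF1 replicate 2. ITGA3, the most abundant gene of this list at 187 FPKM in NC and 175 FPKM in siEIF1 libraries, did not pass the test (log2 fold change -0.08, edgeR adjusted p = 0.515).

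These differences of uPAR partners stood beside a lower level of the receptor transcript itself. Among the 6 tested genes of the LY6/uPAR domain family, to which PLAUR belongs, 1 rose and 0 fell. Over all tested genes, 10.2% rose and 10.4% fell. LYPD6 rose from 1.77 ± 0.108 FPKM to 2.35 ± 0.13 FPKM (SD, n = 3; log2 fold change 0.43, edgeR adjusted p = 0.0032). CD59 (21.4 and 19.8 FPKM) and LY6E (23.1 and 24.0 FPKM), both also bound to the membrane by a glycolipid anchor, had log2 fold changes of -0.09 and 0.077 and did not pass the test. LYPD1, PSCA and LYPD6B had log2 fold changes of 0.45, 0.30 and -0.07 with mean counts from 9.50 to 326 and did not pass it either.

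Of 4 tested proteases that can turn pro-uPA into active uPA, 1 rose, against 10.2% of all tested genes. CTSB, the lysosomal protease cathepsin B, rose from 57.8 ± 2.95 FPKM to 75.4 ± 2.55 FPKM (SD, n = 3; log2 fold change 0.40, edgeR adjusted p = 0.000119). CTSL (0.14), HPN (0.27) and F12 (0.065) did not pass the test.

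The substrates of plasmin and the activators went in both directions. Where 10.2% of all tested genes were higher and 10.4% lower, 5 of the 15 tested here were higher and 2 lower. Among those higher, the call of TGFB1 held in 6 of 14 alternative fits and that of FN1 in 12 of 14. MMP2, a gelatinase, rose from 7.32 ± 0.450 FPKM to 11.3 ± 0.524 FPKM (SD, n = 3; log2 fold change 0.65, edgeR adjusted p = 1.00e-05). THBS1, a matrix protein that binds and activates TGF-beta, rose from 11.4 ± 0.982 FPKM to 16.3 ± 0.941 FPKM (SD, n = 3; log2 fold change 0.54, edgeR adjusted p = 0.000105), and LAMC1, a laminin chain, had a log2 fold change of 0.26. The growth factors FGF2 and VEGFA fell. FGF2 went from 124 ± 2.60 FPKM to 87.9 ± 6.07 FPKM (SD, n = 3; log2 fold change -0.48, edgeR adjusted p = 3.39e-05), and VEGFA from 13.5 ± 0.710 FPKM to 10.2 ± 0.656 FPKM (SD, n = 3; log2 fold change -0.39, edgeR adjusted p = 0.000218).

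Of 8 tested coagulation genes, 3 rose and 1 fell, where 10.2% of all tested genes rose and 10.4% fell. F3, which encodes tissue factor, the starter of clotting, fell from 177 ± 7.96 FPKM to 140 ± 3.89 FPKM (SD, n = 3; log2 fold change -0.31, edgeR adjusted p = 0.000847). F2R, the thrombin receptor PAR1, rose from 36.5 ± 0.486 FPKM to 47.1 ± 1.51 FPKM (SD, n = 3; log2 fold change 0.39, edgeR adjusted p = 5.31e-05), and the inhibitors TFPI2, which also blocks plasmin, and TFPI had log2 fold changes of 0.32 and 0.20. The call of TFPI held in 13 of 14 alternative fits and was lost without NC replicate 3. PROS1 (0.13), THBD (-0.43), F2RL1 (0.40) and PROCR (-0.01) did not pass the test, the last with 41.0 and 40.0 FPKM in NC and siEIF1 libraries.

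**Figure D4:**
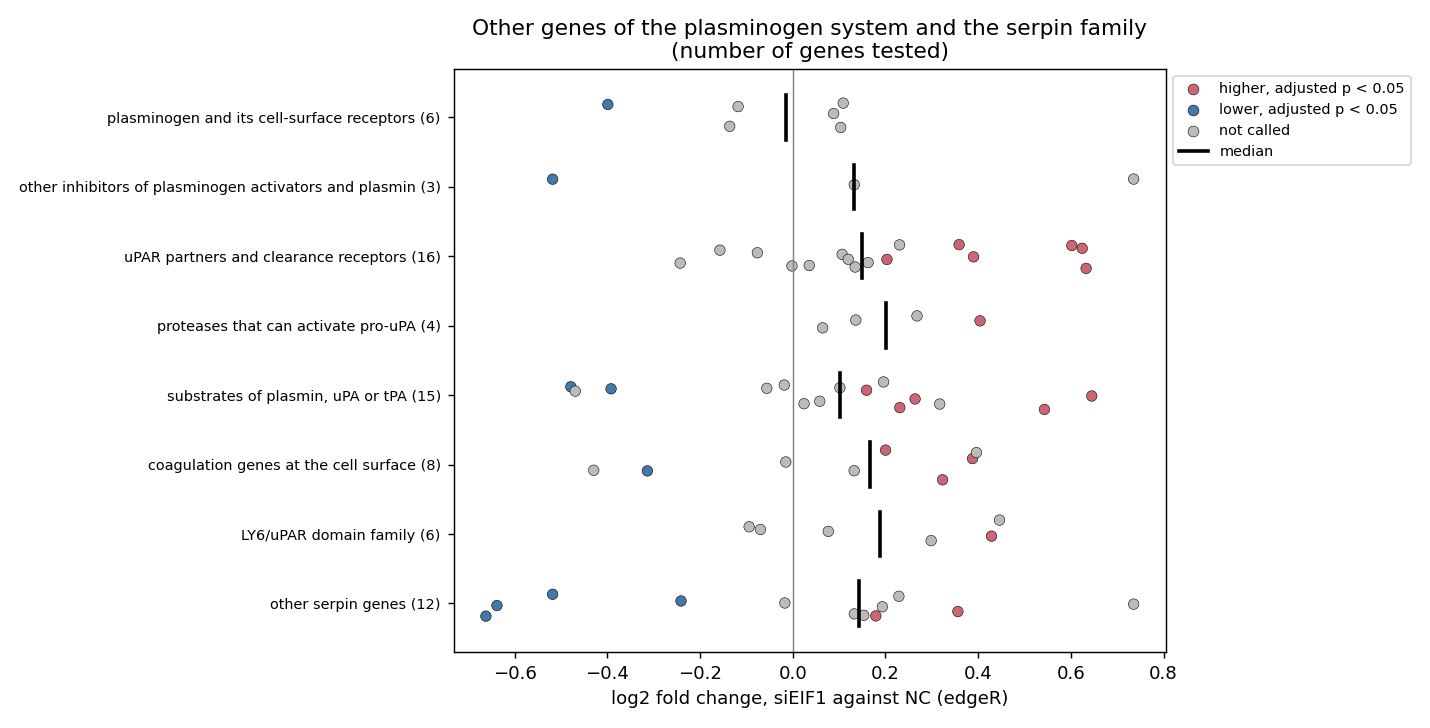
Log2 fold change (horizontal axis, edgeR) of the tested genes of 7 lists of the plasminogen system and of the other serpins, 1 row each with the number of genes tested; red and blue points passed an adjusted p under 0.05 upward and downward, grey points did not, and black bars are medians. In the row of uPAR partners and clearance receptors 6 of 16 genes are red and 0 blue, while the row of other serpins holds 2 red and 4 blue points. Over all tested genes, 10.2% were higher and 10.4% lower.

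As a family, the serpins share a fold but not a function, and 20 further serpin genes were analysed, of which 12 were tested, with SERPINI1 and SERPING1 among them. Of these 12, 2 rose and 4 fell, against 10.2% and 10.4% of all tested genes. SERPINB2 had a lower log2 fold change than each of the 12. Since SERPINB2 was picked with this contrast known, nothing is read from its place. SERPINH1, the collagen chaperone HSP47, which blocks no protease, fell from 27.9 ± 0.362 FPKM to 17.4 ± 0.563 FPKM (SD, n = 3; log2 fold change -0.66, edgeR adjusted p = 8.97e-07). SERPINB6 rose from 8.01 ± 0.204 FPKM to 10.1 ± 0.180 FPKM (SD, n = 3; log2 fold change 0.36, edgeR adjusted p = 0.000114) and SERPINB1, an inhibitor of neutrophil proteases, rose from 15.8 ± 0.606 FPKM to 17.7 ± 0.779 FPKM (SD, n = 3; log2 fold change 0.18, edgeR adjusted p = 0.0261). The SERPINB1 call was weak, since it held in 6 of 14 alternative fits and in 1 of the 6 with a library left out, the fit without siEIF1 replicate 3. SERPINE3, named after its values were seen, fell as well (log2 fold change -0.64, standard error 0.187), a call lost without NC replicate 1, without NC replicate 3, without siEIF1 replicate 1 and without siEIF1 replicate 2.

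SERPINB2 lies in a cluster of 10 SERPINB genes on chromosome 18, from 63476958 to 64019779, of which 4 were analysed here. SERPINB7, the neighbour before SERPINB2 on the same strand, had 6.39, 7.10 and 6.50 FPKM in NC and 6.86, 6.51 and 6.12 FPKM in siEIF1 replicates 1 to 3. Its groups overlapped and its log2 fold change was -0.02 (standard error 0.075, edgeR adjusted p = 0.908). SERPINB10, the next gene after SERPINB2, had at most 2 counts in a library. SERPINB8, further along, fell from 4.95 ± 0.242 FPKM to 4.13 ± 0.155 FPKM (SD, n = 3; log2 fold change -0.24, edgeR adjusted p = 0.0103). Beside these, the log2 fold change of SERPINB2 was -1.05.

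For each member the genes with the most similar pattern were looked up among 12027 tested genes with a mean count of at least 100, by Pearson's r of log2 CPM over the 6 libraries. For SERPINB2 these were AASDHPPT (r = 0.999) and UBE2S (r = 0.999), for PLAUR TRIM11 (r = 0.999) and CSRNP2 (r = 0.998), and for PLAT ANAPC7 (r = 0.9997) and SLC25A32 (r = 0.999). For PLAU they were BEND6 (r = 0.991) and UHRF1BP1L (r = 0.990), and for SERPINE2 SLMAP (r = 0.990) and BRCC3 (r = 0.983). With 6 libraries in 2 groups, r is set largely by the group difference and by the same library deviations, and it says nothing of the size. The log2 fold change was -0.22 for AASDHPPT and -0.65 for UBE2S, against -1.05 for SERPINB2.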

How the data were processed

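Polyadenylated RNA of 6 ARPE-19 libraries was sequenced as strand-specific paired-end reads. The authors trimmed reads with FASTX-Toolkit 0.0.13, aligned them to GRCh38 with HISAT2 and deposited uniquely mapped reads per gene as raw counts. The authors also deposited FPKM values (fragments per kilobase, scaled to library size) which hold no value for 343 of the genes counted. The counting program, strand setting and annotation release are not given in the sources used here. Groups and replicate numbers came from the sample titles, and 0 columns were unmatched.

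Counts were filtered with filterByExpr, scaled by TMM (factors 0.981 to 1.02) and fitted over all 16749 genes with edgeR 4.0.16 in R 4.3.3 (quasi-likelihood test, Benjamini-Hochberg adjustment). Calls needed an adjusted p under 0.05. Standard errors were taken from the F statistic. Libraries of a group differed by more than sampling noise (chi-square per degree of freedom 2.87 to 13.0). Alternatives were RLE and upper-quartile scaling, no filter, at least 10 counts per library, DESeq2 1.42.0, limma 3.58.1 on log2(FPKM + 1) and log2(FPKM + 0.1), the replicate number as a block, the 2-fold limit and leaving out each library. The tests were also run on simulated counts with 200 changed genes and the same variability for every gene. This setting is simpler than the data, and no result here rests on it. Positions came from GENCODE 44, whose versioned gene IDs match 83.7% of those counted and all 5 members.

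The members and lists were chosen with earlier results of these data known. Named are the members, EIF1, in each list up to 5 called genes with the smallest p, the gene with the highest FPKM and all tested genes of lists with at most 8, the 2 genes most like each member, overlapping genes and SERPINB neighbours. VTN, LRP1, VLDLR, TGFB1 and FN1 were named after their values were seen. Markers are named only where they bear on the cells. The values of 1 gene that this rule names are not reported here.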

Additional observations from a re-analysis of the deposited data

How the results depend on the processing

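Under 8 other scalings, filters, tools and the replicate block, the log2 fold changes of the 5 members kept their direction and moved by less than 1 SD between replicates. With 1 library left out, they ran from 0.30 to 0.45 for PLAU, -0.32 to -0.22 for PLAT, -0.44 to -0.30 for PLAUR, -1.08 to -1.0 for SERPINB2 and -0.23 to 0.022 for SERPINE2, which turned positive without NC replicate 1. Members called higher numbered 0 with limma on log2(FPKM + 1) and on log2(FPKM + 0.1) and 0 to 1 with a library left out (0 without NC replicate 2); members called lower numbered 2 to 3 there (2 without siEIF1 replicate 2, where PLAT was not called). With the 2-fold limit, 0 members were called higher and 1 lower, and 67 and 219 of the 16749 genes tested (1.31% for those lower). Nothing is read from these counts of members, since the members were picked with the contrast known. The log2 fold change of SERPINB2 was -0.99 with limma on log2(FPKM + 1), under that limit. All genes called higher numbered 1067 and 1071 with limma on FPKM and 1118 to 1709 with a library left out, those lower 1124 to 1763. Other serpins called higher numbered 1 with either limma fit and 1 to 2 with a library left out. The causes were not tested. Of 26 list and serpin genes called, 20 were called with every library left out in turn and 19 in all 14 fits.

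Same-numbered libraries of the groups correlated in their deviations at 0.149, 0.0946 and 0.128. The sources used here do not give the numbers of these libraries as pairs, so the main fit has no block. Whether the numbers mark a shared origin was not tested. With the replicate block, 9 pathway genes fell in place of 5. The calls of all genes were 2149 higher and 2128 lower with it, against 1702 and 1744 without. The standard error of each member was also smaller with the block. Per canonical transcript length, a scale chosen after seeing the data, the ranks by level in NC were 5 for PLAU (3 by FPKM), 4 for PLAT (5), 1 for PLAUR (2), 2 for SERPINB2 (1) and 3 for SERPINE2 (4), and in siEIF1 libraries SERPINB2 ranked 3 and SERPINE2 2.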
